A study of Mus musculus with 2 samples.

Results

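Proteasome genes were followed in RNA-seq libraries of mouse bone marrow-derived MDSCs (myeloid-derived suppressor cells, immature myeloid cells named for dampening T cell responses). The members were the protein-coding genes of the deposited count table whose names begin with Psma to Psmg followed by a number, without the immunoproteasome genes Psmb8, Psmb9 and Psmb10. This gave 47 of the 54751 genes. They comprised 16 core genes (Psma and Psmb, 8 each), 20 regulatory genes (6 Psmc ATPases and 14 Psmd non-ATPases), 5 activator genes (Psme), 4 assembly genes (Psmg), the inhibitor gene Psmf1, and Psmc3ip. Psmc3ip matches the name but encodes a homologous recombination factor and no proteasome subunit, and it is given on its own.

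The 2 groups had 1 library each. One culture, of WT genotype, received mrWNT2 on day 0 and day 3 and was collected on day 6, and the other, also WT, received vehicle on the same schedule. WNT2 is a secreted WNT ligand. Dose, mouse strain, age and number of animals are not given in the sources used here. The mrWNT2 library held 12621110 counts and the control library 13474453.

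The proteasome is the cell's main machine for degrading ubiquitin-tagged proteins. Its barrel-shaped core has outer rings of alpha subunits, which gate the entrance, and inner rings of beta subunits, some of which cut peptide bonds. A regulatory particle docks on the core: its base of ATPases unfolds substrates, and its lid removes ubiquitin. Other caps, the activators, open the core without ubiquitin, and dedicated chaperones assemble the parts. In myeloid cells the proteasome also makes peptides for antigen presentation and degrades the inhibitor of NF-kB.

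The labelled cell type was checked against marker genes before the results. The 9 myeloid identity genes were all detected, with summed levels of 37151 CPM (counts scaled to a common library size) in the mrWNT2 library and 43594 CPM in the control library. Most of each sum came from S100a9, at 22000 CPM in mrWNT2 and 25349 CPM in control, and S100a8, at 12588 and 15750 CPM. Within the 9 genes Csf1r and Cd14 were 2.37-fold and 2.03-fold higher in the mrWNT2 library, and Ly6g stood at 86.3 CPM in mrWNT2 and 173 CPM in control. The 6 macrophage markers summed to 1350 and 1547 CPM in mrWNT2 and control, with Adgre1 and Marco higher by 1.2-fold or more and the other 4 lower by as much. Megakaryocyte markers (2 genes) summed to 217 CPM in mrWNT2 and 482 CPM in control, with Pf4 at 150 and 414 CPM and Itga2b at 66.9 and 68.1 CPM. Stromal markers (4 genes) summed to 56.2 CPM in mrWNT2 and 61.7 CPM in control, with Pecam1 at 47.9 and 41.6 CPM, Col1a1 at 4.88 and 12.7 CPM and Col1a2 at 1.18 and 4.94 CPM. The sums were 1194 CPM in mrWNT2 and 1036 CPM in control for eosinophil, basophil and mast cell markers (4 genes). Epx stood at 372 and 281 CPM in mrWNT2 and control, and Prg2 at 736 and 654 CPM. Mcpt8 stood at 40.3 and 38.7 CPM, and Cpa3 went the other way, at 46.9 and 63.0 CPM. Markers of T and NK cells (6 genes), B cells (3 genes) and erythroid cells (3 genes) each summed to under 3 CPM in both libraries. Among those at 0 counts were Cd3e, Cd3g, Cd8a, Ncr1 and Hbb-bs in mrWNT2, and Ncr1, Ms4a1 and Hbb-bs in control. The part of these shifts in the proteasome values was not tested. In a bulk sample, fewer cells of a type and less RNA per cell cannot be told apart.

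Most proteasome genes were slightly higher in the mrWNT2 library. Of the 47 members, 45 had a mean of at least 1 CPM and are called measured. Their median ratio of mrWNT2 over control was 1.07-fold (log2 0.10), against a median log2 ratio of 0.03 over the 11235 protein-coding genes past the same minimum and 0.02 over all 12856 genes. A ratio above 1 was found for 37 of 45 members (82.2%), against 53.9% of protein-coding genes and 52.3% of all genes. Added up, the 47 genes gave 45515 counts in the mrWNT2 library and 44087 in the control library, which is 3579 CPM (exact 95% Poisson interval 3546 to 3612) in mrWNT2 and 3297 CPM (3266 to 3328) in control. The ratio of these sums was 1.09-fold, a log2 ratio of 0.12 (0.10 to 0.14). Ratios here are given with a 95% binomial (Clopper-Pearson) interval from the 2 counts, which covers counting error only. With 1 library per group there was no replicate check and no test, and the intervals compare 2 libraries, not the conditions.

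The differences were small and lay close together. A fold of 1.2 was taken as the size that counts. By that rule 5 of 45 members were higher (11.1%, background 20.4% of protein-coding genes), 2 were lower (4.44%, background 15.6%), and 38 lay within 1.2-fold (84.4%, background 63.9%). The higher members were Psmd10, Psme2, Psmb6, Psmd7 and Psmc1, and the lower ones Psmg4 and Psme2b. With median-of-ratios or upper-quartile factors, or from FPKM, 3 members were higher, and with raw totals 7 were higher and 1 was lower. Over all 12856 genes the shares were 21.0% higher, 18.4% lower and 60.6% within 1.2-fold. None of the members reached 1.5-fold, which 7.29% of protein-coding genes did upwards and 5.08% downwards. The interval lay wholly above 1 for 18 members (40.0%, background 22.5%) and wholly below 1 for 1 member, Psme4 (2.22%, background 19.2%), and it included 1 for 26. The interval lay above 1 for 11 members with median-of-ratios factors (24.4%, background 19.3%) and for 10 with upper-quartile factors (22.2%, background 17.6%), and under both it lay below 1 for Psme2b as well as Psme4. Under both the intervals of Psma6, Psmb1, Psmc2, Psmc4, Psmc5, Psmd3 and Psme3 no longer cleared 1. With upper-quartile factors that of Psmd12 did not either. Over all genes 21.0% of intervals lay above 1 and 18.8% below it. For 24 members the whole interval lay within 1.2-fold (53.3%, background 23.8%). Members are expressed above the typical gene, which narrows counting error. The interval shares above were not matched for level. A mean level between 50 and 300 CPM was found for 35 members and 3471 protein-coding genes, and in this band 31 members (88.6%) and 76.9% of all genes lay within 1.2-fold. In the same band 32 members (91.4%) and 48.6% of all genes had a ratio above 1, and the SD of the log2 ratio was 0.11 for the members and 0.35 for all genes in it. Of the 45 members, 33 had an interval that held the 1.09-fold ratio of the summed members. It lay above that ratio for Psmd10, Psme2, Psmb6, Psmd7, Psmc1, Psmb2, Psmd8 and Psmd2, and below it for Psme2b, Psme4, Psmd5 and Psma2.

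**Figure D1:**
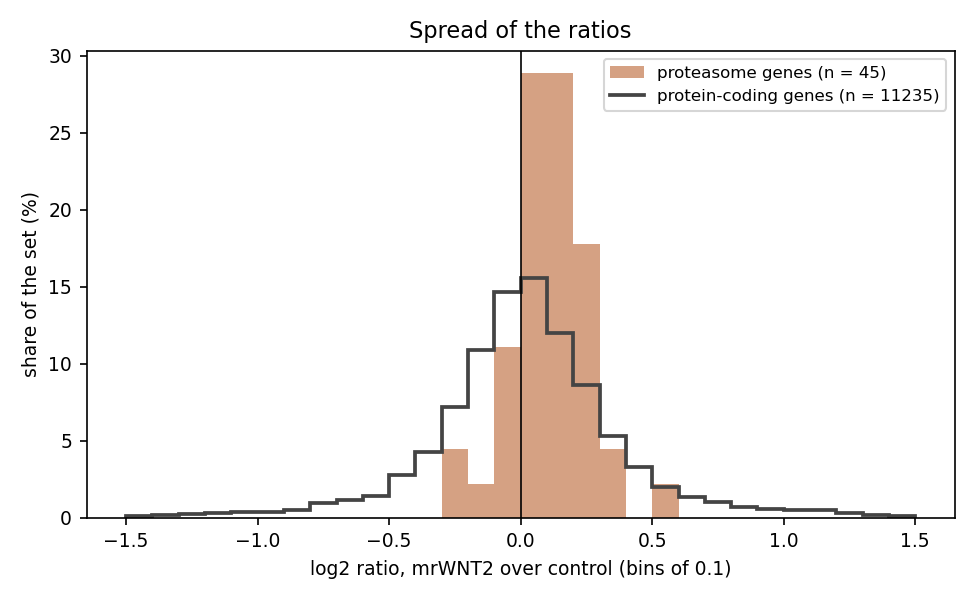
Distribution of the log2 ratio of mrWNT2 over control, in bins of 0.1, as a share of each set (%): filled, the 45 measured proteasome genes; line, the 11235 measured protein-coding genes. The proteasome genes sit in a narrow range from -0.30 to 0.55, with most of them just above 0 (median 0.10).

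The alpha ring genes lay close together. All 7 measured Psma genes lay within 1.2-fold, against 76.9% of protein-coding genes with a mean of 50 to 300 CPM, the band that holds all 7. The log2 ratios of the 7 ran from -0.02 to 0.14, with a median of 0.10. Psma5 was highest: it had 775 counts (60.9 CPM) in mrWNT2 and 742 (55.5 CPM) in control, a log2 ratio of 0.14 (-0.01 to 0.28). Psma4 followed, with 906 counts in mrWNT2 and 876 in control, a ratio of 1.09 (0.990 to 1.19). At the other end Psma2 had 1711 counts (135 CPM) in mrWNT2 and 1823 (136 CPM) in control, a ratio of 0.987 (0.923 to 1.05), and its sign changed with the library scaling, as did those of Psmb3, Psmb4, Psmg2 and Psmf1. Next lowest was Psma1, with 1750 and 1771 counts in mrWNT2 and control, a ratio of 1.04 (0.972 to 1.11). The interval lay above 1 for Psma6 alone, whose log2 ratio was 0.10 (0.01 to 0.19), from 1994 counts in mrWNT2 and 1960 in control. With median-of-ratios or upper-quartile factors the interval of Psma6 included 1. Psma3 and Psma7 had log2 ratios of 0.10 and 0.06, each with an interval that included 0. The alpha genes together summed to 721 CPM in mrWNT2 and 688 CPM in control, 1.05-fold (1.02 to 1.08). The intervals of the measured alpha genes overlapped one another. Overlap does not show that the ratios were equal, and the interval of Psma2 lay below the 1.09-fold ratio of the summed members. Psma8, a testis form of an alpha subunit, was below the minimum, with 3 counts in mrWNT2 and 7 in control, a ratio of 0.451 (0.0752 to 1.97).

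The beta ring genes were less even, and most of their difference came from Psmb6 and Psmb2. Psmb6 (chromosome 11, 70525367 to 70527858, GRCm38) encodes the subunit that cuts after acidic residues. It had 1029 counts (80.9 CPM) in mrWNT2 and 828 (61.9 CPM) in control, a ratio of 1.31 (1.19 to 1.43). Psmb2, a structural beta subunit gene, had 1143 counts (89.9 CPM) in mrWNT2 and 1010 (75.5 CPM) in control, a ratio of 1.19 (1.09 to 1.30). The other catalytic genes were closer to 1. Psmb5 (chromosome 14, 54614119 to 54618022), for the chymotrypsin-like activity that bortezomib blocks, had 782 counts (61.5 CPM) in mrWNT2 and 777 (58.1 CPM) in control, a ratio of 1.06 (0.957 to 1.17). Psmb7, for the trypsin-like activity, had 491 counts (38.6 CPM) in mrWNT2 and 527 (39.4 CPM) in control, a ratio of 0.980 (0.865 to 1.11). Among the 3 catalytic genes, then, the interval of Psmb6 lay above those of Psmb5 and Psmb7 without overlap. Psmb7 shares 405 exonic bases with Nek6 on the opposite strand, which had 2443 counts in mrWNT2 and 2622 in control, and without a stated strand setting their reads cannot be told apart there. Psmc3, Psmd13 and Psmc3ip share exonic bases in the same way with Slc39a13, Sirt3 and Mlx. Of the remaining structural genes, Psmb3 had 999 counts in mrWNT2 and 1043 in control, a log2 ratio of 0.01 (-0.12 to 0.14). Psmb4 and Psmb1 had log2 ratios of 0.02 and 0.12, and the interval of Psmb1 just cleared 0. The beta genes summed to 541 CPM in mrWNT2 and 496 CPM in control, 1.09-fold (1.06 to 1.13). Psmb11, the thymus form of a catalytic subunit, had 0 counts in either library, a result that leaves room for 0.236 CPM in mrWNT2 and 0.224 CPM in control.

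The promoter windows of Psmb6 and Psmb5 are shown because these catalytic genes differed in ratio while both hold the antioxidant response element core, the letters bound by the proteasome gene activator NFE2L1 and by NFE2L2. The windows run from 250 bases before to 50 bases after the RefSeq start site (GRCm38.p6), 5′ to 3′ on the strand of the gene, with that core in capitals. Psmb6 is at chr11:70525107-70525406 on the plus strand and Psmb5 at chr14:54617946-54618245 on the minus strand.
Psmb6: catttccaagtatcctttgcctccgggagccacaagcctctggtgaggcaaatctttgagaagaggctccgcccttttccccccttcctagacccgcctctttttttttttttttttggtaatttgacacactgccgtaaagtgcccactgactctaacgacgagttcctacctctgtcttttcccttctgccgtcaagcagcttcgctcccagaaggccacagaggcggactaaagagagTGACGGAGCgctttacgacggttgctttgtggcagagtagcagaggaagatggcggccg
Psmb5: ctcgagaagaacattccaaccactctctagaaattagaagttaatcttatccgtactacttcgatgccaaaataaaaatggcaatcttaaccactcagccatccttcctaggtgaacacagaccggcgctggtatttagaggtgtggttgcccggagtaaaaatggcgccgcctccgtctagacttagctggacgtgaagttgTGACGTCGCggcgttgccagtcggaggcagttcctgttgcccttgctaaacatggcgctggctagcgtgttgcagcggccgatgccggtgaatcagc
The core begins 9 bases before the start site in Psmb6 and 47 bases before it in Psmb5, on the plus strand of each gene. The same letters thus occur beside a ratio of 1.31 and a ratio of 1.06.

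The summed ratio of the regulatory particle genes was above that of the core genes. Of 20 regulatory genes, all measured, 18 had a ratio above 1 (background 53.9% of protein-coding genes), 3 were at least 1.2-fold higher (background 20.4%) and 0 were at least 1.2-fold lower (background 15.6%). The interval lay above 1 for 12 of 20 regulatory genes (60.0%) and for 4 of 14 measured core genes (28.6%), against a background of 22.5%. That background is not matched for level, and genes with fewer counts have wider intervals. With upper-quartile factors these counts were 7 regulatory genes (35.0%) and 2 core genes (14.3%), against 17.6%. Regulatory genes summed to 1820 CPM in mrWNT2 and 1629 CPM in control, 1.12-fold, a log2 ratio of 0.16 (0.13 to 0.19). For the core genes the sums were 1263 CPM in mrWNT2 and 1184 CPM in control, 1.07-fold, a log2 ratio of 0.09 (0.06 to 0.12). These intervals did not overlap, and the log2 ratio of the regulatory sum exceeded that of the core sum by 0.07 under TMM, median-of-ratios, raw-total and upper-quartile scaling, since a scaling shifts both alike. With Adrm1 and Sem1, regulatory particle subunit genes outside the naming rule, the regulatory log2 ratio was 0.14 (0.12 to 0.17), and its interval overlapped that of the core. Without Psmb6 the core sum was 1.05-fold higher (1.03 to 1.08). Without Psmd2, the most abundant regulatory gene in CPM, the regulatory sum was 1.11-fold higher (1.08 to 1.13). That interval overlapped the interval of all core genes (1.04 to 1.09), so the lack of overlap also depended on Psmd2. Whether cultures treated alike would differ as much could not be tested without replicates.

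The 6 ATPase genes, whose products form the unfolding ring of the base, all had a ratio above 1 (background 53.9% of protein-coding genes). Their median log2 ratio was 0.14. Psmc1 had 1585 counts (125 CPM) in mrWNT2 and 1387 (104 CPM) in control, a log2 ratio of 0.27 (0.16 to 0.37). Psmc5 had 791 counts (62.2 CPM) in mrWNT2 and 738 (55.2 CPM) in control, a ratio of 1.13 (1.02 to 1.25). The lowest were Psmc6, at 1.07 (0.978 to 1.17) from 1011 counts in mrWNT2 and 995 in control, and Psmc3, at 1.04 (0.968 to 1.13) from 1347 and 1356 counts in mrWNT2 and control. Psmc2 and Psmc4 lay between, at 1.09-fold and 1.11-fold, with intervals above 1. The genes of the ring summed to 545 CPM in mrWNT2 and 491 CPM in control (1.11-fold, 1.07 to 1.15).

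The non-ATPase genes held the largest ratio of all measured members. Psmd10 (chromosome X, 140948429 to 140956728, GRCm38) encodes gankyrin, an ankyrin-repeat chaperone that helps assemble the base and does not stay in the finished particle. It had 321 counts (25.2 CPM) in mrWNT2 and 230 (17.2 CPM) in control, a ratio of 1.47 (1.24 to 1.75). The genes of the other base chaperones had ratios just below 1. Psmd5 had 715 counts (56.2 CPM) in mrWNT2 and 771 (57.7 CPM) in control, a ratio of 0.975 (0.880 to 1.08). Psmd9 had 249 counts (19.6 CPM) in mrWNT2 and 276 (20.6 CPM) in control, a ratio of 0.949 (0.796 to 1.13). The interval of Psmd10 lay above both, and Psmd5 and Psmd9 had the 2 lowest ratios among the non-ATPase genes.

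The base scaffold and lid genes had ratios above 1, with intervals that for several of them included 1. Psmd2, which with Psmd1 forms the scaffold that docks ubiquitin carriers, had 3493 counts (275 CPM) in mrWNT2 and 3124 (234 CPM) in control, a ratio of 1.18 (1.12 to 1.23). Psmd1 had 1579 counts in mrWNT2 and 1481 in control, a log2 ratio of 0.17 (0.06 to 0.27). The ubiquitin receptor gene Psmd4 was nearer to 1, with 1176 counts (92.5 CPM) in mrWNT2 and 1192 (89.1 CPM) in control, a ratio of 1.04 (0.956 to 1.13). All 8 lid members (Psmd3, Psmd6, Psmd7, Psmd8, Psmd11, Psmd12, Psmd13 and Psmd14) had a ratio above 1 (background 53.9% of protein-coding genes). The interval of 5 lay above 1 (background 22.5%, not matched for level). With upper-quartile factors those of Psmd3 and Psmd12 among the 5 included 1. Psmd7, the inactive partner of the lid's deubiquitinase, was highest of the lid genes, with 1047 counts (82.3 CPM) in mrWNT2 and 908 (67.9 CPM) in control, a ratio of 1.21 (1.11 to 1.33). The deubiquitinase gene itself, Psmd14, had 1043 counts (82.0 CPM) in mrWNT2 and 1053 (78.7 CPM) in control, a ratio of 1.04 (0.955 to 1.14). The intervals of these partners overlapped. The lid scaffold genes Psmd8 and Psmd11 had log2 ratios of 0.25 (0.14 to 0.35) and 0.21 (0.08 to 0.34). Psmd11 had 970 counts in mrWNT2 and 883 in control. Summed, the lid members were 1.12-fold higher (1.09 to 1.16) and the base members without their chaperones also 1.12-fold (1.09 to 1.15). These sums leave out Sem1 and Adrm1, regulatory particle subunit genes outside the naming rule. Sem1 had 2427 counts in mrWNT2 and 2508 in control, a ratio of 1.02 (0.962 to 1.08). Adrm1 was at 0.980 (0.891 to 1.08).

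**Figure D2:**
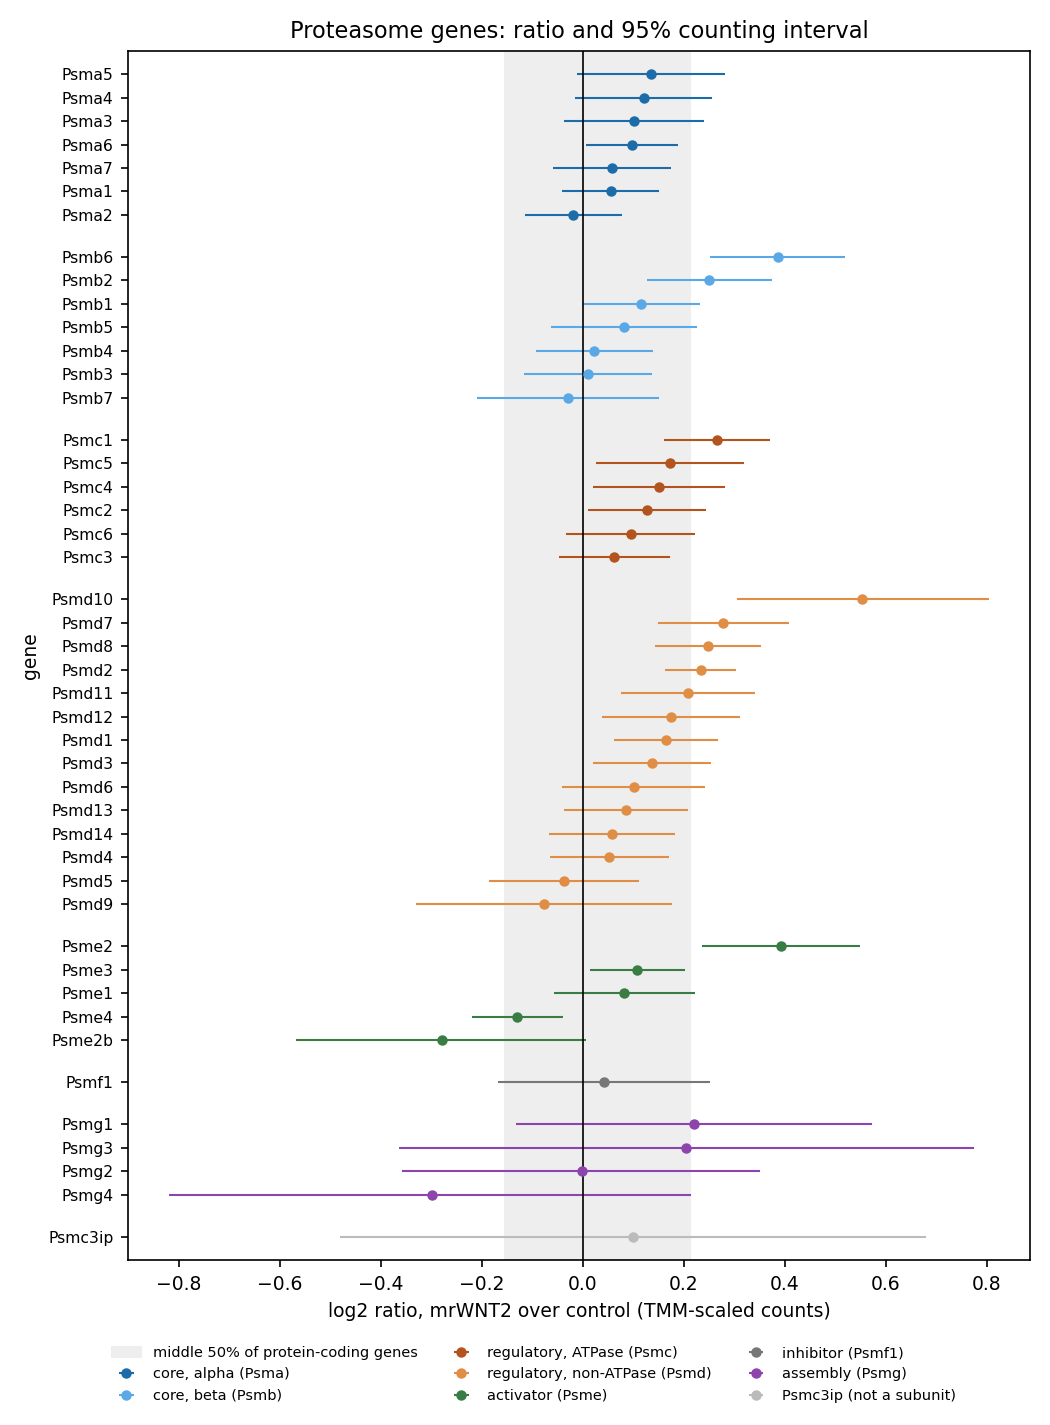
Log2 ratio of mrWNT2 over control for each of the 45 measured members, grouped by role (points, with 95% binomial intervals that cover counting error only); the grey band spans the middle 50% of protein-coding genes (-0.15 to 0.21). Psmd10, Psme2 and Psmb6 lie to the right of the band with intervals wholly above its upper edge, and the widest intervals belong to Psmg3, Psmg4 and Psmc3ip, each with under 80 counts per library.

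Promoter windows of 3 regulatory genes are shown because they had the highest ratio among the ATPase genes (Psmc1), the most counts among the members (Psmd2) and the highest ratio among the members (Psmd10). Capitals mark the NF-Y box CCAAT and the ETS core CCGGAAG, or their reverse complements. Psmc1 is at chr12:100109952-100110251 and Psmd2 at chr16:20651402-20651701, both on the plus strand, and Psmd10 at chrX:140956662-140956961 on the minus strand (all GRCm38.p6).
Psmc1: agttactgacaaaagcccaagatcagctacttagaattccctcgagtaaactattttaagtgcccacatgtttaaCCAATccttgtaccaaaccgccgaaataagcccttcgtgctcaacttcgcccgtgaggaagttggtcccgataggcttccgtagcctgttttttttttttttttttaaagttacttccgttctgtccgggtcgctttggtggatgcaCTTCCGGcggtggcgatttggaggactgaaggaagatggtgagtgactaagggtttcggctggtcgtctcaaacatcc
Psmd2: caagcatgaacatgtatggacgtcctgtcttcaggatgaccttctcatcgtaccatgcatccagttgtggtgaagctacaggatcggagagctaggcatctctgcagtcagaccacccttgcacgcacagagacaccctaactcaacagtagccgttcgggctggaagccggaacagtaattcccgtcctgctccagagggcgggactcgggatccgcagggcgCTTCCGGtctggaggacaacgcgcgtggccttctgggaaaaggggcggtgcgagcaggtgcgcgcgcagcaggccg
Psmd10: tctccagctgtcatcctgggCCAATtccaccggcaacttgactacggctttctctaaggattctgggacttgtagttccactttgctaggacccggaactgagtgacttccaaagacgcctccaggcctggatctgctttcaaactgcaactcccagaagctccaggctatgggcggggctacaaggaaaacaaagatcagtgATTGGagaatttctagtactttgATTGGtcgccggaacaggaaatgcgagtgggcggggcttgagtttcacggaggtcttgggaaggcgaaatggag
The ETS core lies on the minus strand of the gene in both Psmc1 and Psmd2, beginning 28 and 26 bases before the start site. Psmd10 holds no ETS core in this window and has 3 NF-Y boxes, and Psmc1 has 1.

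These letters were searched on both strands in the windows of all members that could be matched by symbol. A window was found for 39 of 47 genes (42 windows). Psma8, Psmb1, Psmb2, Psmb7, Psmc3, Psmd3, Psmd7 and Psmg2 had none. The ETS core was present for 15 of 39 member genes (38.5%), against 21.3% of the 8971 measured protein-coding genes that had a window. Psmc3ip was among the 15, as were Psmd2, Psmd4, Psmd6, Psmd11, Psmd12 and Psmd13. The NF-Y box was found for 14 members (35.9%, against 43.4%). The antioxidant response element core TGACNNNGC was found for 6 members (15.4%, against 17.4%): Psmb5, Psmb6, Psmc6, Psmd9, Psmd12 and Psme4. The IRF core, known from interferon-induced genes, was found for 5 members (12.8%, against 3.78%): Psmb3, Psmd4, Psmd9, Psme1 and Psmg4. Matches of different motifs overlapped in 0 cases. A match describes letters and not binding, and holders of the antioxidant core ranged from Psmb6 at 1.31-fold to Psme4 at 0.914-fold.

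The activator genes were split. Psme1 and Psme2 encode the subunits of an interferon-inducible cap used in antigen processing. Psme2 had 754 counts (59.3 CPM) in mrWNT2 and 604 (45.2 CPM) in control, a ratio of 1.31 (1.18 to 1.46). Its partner Psme1 had 842 counts (66.2 CPM) in mrWNT2 and 836 (62.5 CPM) in control, a ratio of 1.06 (0.961 to 1.17), and their intervals did not overlap. Psme2b, a retrotransposed copy of Psme2, went the other way, with 181 counts (14.2 CPM) in mrWNT2 and 231 (17.3 CPM) in control, a ratio of 0.824 (0.675 to 1.01). The best local alignment of their annotated transcripts had 99.4% identity over 794 bases, so the split of reads between Psme2 and Psme2b is uncertain. Taken as a sum, the pair had 935 counts in mrWNT2 and 835 in control, 1.18-fold (1.07 to 1.29). That interval overlapped the interval of Psme1 (0.961 to 1.17), so the separation of Psme2 from Psme1 depended on the split of reads.

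The nuclear activator genes both lay within 1.2-fold, but on opposite sides of 1, and their intervals did not overlap. Psme3, whose product degrades proteins without ubiquitin, had 1850 counts (145 CPM) in mrWNT2 and 1805 (135 CPM) in control, a ratio of 1.08 (1.01 to 1.15). Psme4, whose large single-chain cap has been tied to histone degradation, had 1874 counts (147 CPM) in mrWNT2 and 2155 (161 CPM) in control, a ratio of 0.914 (0.859 to 0.973). Its interval lay wholly below 1, as did that of Psme2b with median-of-ratios or upper-quartile factors. The activator genes summed to 433 CPM in mrWNT2 and 421 CPM in control, 1.03-fold (0.990 to 1.07), with a log2 ratio of -0.01 under upper-quartile scaling and 0.00 without Psme2 and Psme2b. Psmf1, whose product binds the core and inhibits it in vitro, had 374 counts (29.4 CPM) in mrWNT2 and 382 (28.6 CPM) in control, a ratio of 1.03 (0.890 to 1.19).

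The assembly genes encode chaperones that pair up to build the alpha ring, and they were the least expressed group. Psmg1 had 144 counts (11.3 CPM) in mrWNT2 and 130 (9.72 CPM) in control, a ratio of 1.16 (0.913 to 1.49). Its partner Psmg2 had 132 and 139 counts in mrWNT2 and control, a ratio of 0.999 (0.781 to 1.28). Psmg3 had 57 counts in mrWNT2 and 52 in control, and Psmg4 had 58 in mrWNT2 and 75 in control, with ratios of 1.15 (0.778 to 1.71) and 0.813 (0.567 to 1.16). All 4 intervals included 1, and each was wide enough to hold a difference of 1.2-fold in at least 1 direction, so a difference of that size was not detectable at this depth. Their sum was 30.7 CPM in mrWNT2 and 29.6 CPM in control, a log2 ratio of 0.05 (-0.15 to 0.26), which was -0.06 when FPKM were summed. Pomp, which encodes the chaperone that matures the core and does not match the naming rule, had 769 counts (60.5 CPM) in mrWNT2 and 750 (56.1 CPM) in control, a ratio of 1.08 (0.974 to 1.19). Psmc3ip had 53 counts in mrWNT2 and 52 in control, a ratio of 1.07 (0.717 to 1.60).

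Levels of different genes were compared per length, on the authors' FPKM scale (fragment counts divided by gene length and by depth). In both libraries Psma6 had the highest level among core genes, at 126 FPKM in mrWNT2 and 120 FPKM in control. Psmb7 had the lowest of the 14 measured core genes, at 11.2 FPKM in mrWNT2 and 11.7 FPKM in control. The highest level thus exceeded the lowest 11.3-fold in mrWNT2 and 10.3-fold in control. The positions of the core are filled in equal numbers, but Psmb10 can replace Psmb7 at its position. Psmb10 stood at 10.2 FPKM in mrWNT2 and 10.3 FPKM in control, so the level of Psmb7 alone does not describe that position. The deposited gene length counts every annotated exon. Psmb1 has a deposited length of 4595 bases and a principal transcript of 1758 bases. Scaled to the annotated principal transcript, a choice made after the values were seen, the range was 6.40-fold in mrWNT2 and 6.42-fold in control. Psma6 stayed highest, at 150 CPM per kilobase in mrWNT2 and 141 in control, while Psma3 was lowest, at 23.5 in mrWNT2 and 21.9 in control. The lowest place, and so the range, depended on the length used. Psma3 was scaled to 2846 bases and Psmb7 to 1160 bases, and before scaling to length Psma3 (66.9 CPM in mrWNT2) was above Psmb7 (38.6 CPM). Per kilobase of principal transcript the ATPase genes spanned 2.20-fold in mrWNT2 and 1.96-fold in control.

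The assembly genes had lower levels than the core genes their products assemble. On the principal transcript scale the assembly genes had a median of 9.01 CPM per kilobase in mrWNT2 and 9.56 in control, against core medians of 74.0 in mrWNT2 and 71.1 in control. The base chaperone gene Psmd9 was the lowest non-ATPase gene, at 7.54 CPM per kilobase in mrWNT2 and 7.95 in control. Psmd9 shares 1849 exonic bases (25.5% of its own) with Gm26745 on the opposite strand. Psmg3 shares 280 (9.68%) with Gm26938 on the same strand. Both of these other genes had 0 counts in each library. What these overlaps did to the levels of Psmd9 and Psmg3 was not tested. Psmd2 was the highest of that group, at 92.8 in mrWNT2 and 78.9 in control. The order of levels is a description of each library, and genes close in that order do not have a measured spread between samples.

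**Figure D3:**
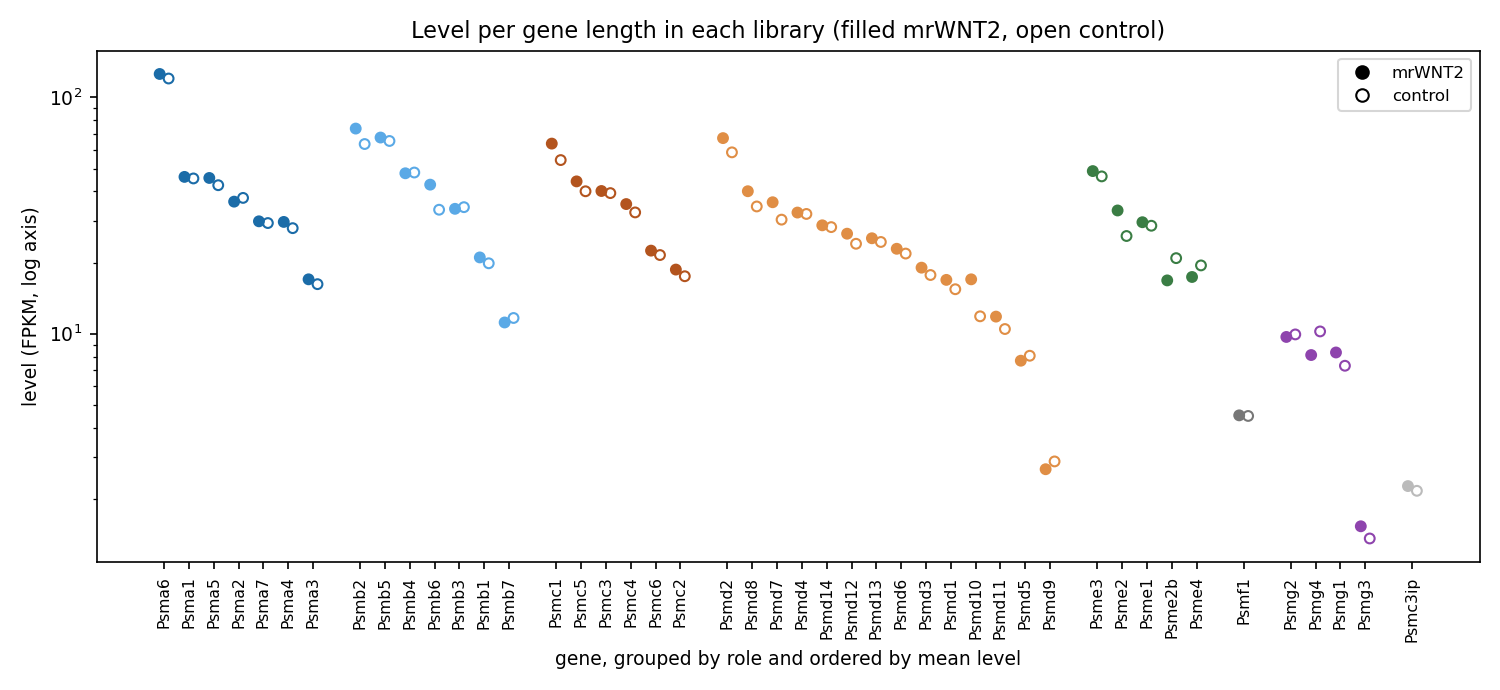
Level of each measured member in FPKM (log axis) in the mrWNT2 library (filled, left of each pair) and the control library (open, right), grouped by role and ordered by mean level. Within a gene the libraries lie close together, whereas genes of a group span a wide range, from 11.2 (Psmb7) to 126 FPKM (Psma6) among core genes in mrWNT2.

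The immunoproteasome genes left out by the rule were set beside the catalytic genes they replace. Psmb8, the counterpart of Psmb5, had 519 counts (40.8 CPM) in mrWNT2 and 371 (27.7 CPM) in control, a ratio of 1.47 (1.29 to 1.69). Psmb9, the counterpart of Psmb6, was at 1.01 (0.856 to 1.19), and Psmb10, the counterpart of Psmb7, at 1.01 (0.837 to 1.22). The gene with the raised ratio thus differed between the sets: Psmb6 among the constitutive genes and Psmb8 among the inducible ones.

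Partners of the proteasome outside the naming rule had a median close to that of all protein-coding genes. Of 28 listed genes, 27 were matched by symbol (not Paaf1) and all 27 were measured, with a median log2 ratio of 0.03, beside 0.03 for protein-coding genes. At least 1.2-fold higher were 2 of the 27 (background 20.4% of protein-coding genes), Nfe2l1 and the thioredoxin-like gene Txnl1. Lower by as much was 1 of the 27 (background 15.6%), Ngly1. Nfe2l1, which encodes the membrane-anchored factor that activates proteasome genes when degradation is impaired, had 2135 counts (168 CPM) in mrWNT2 and 1647 (123 CPM) in control, a ratio of 1.36 (1.28 to 1.45). Genes for the enzymes that process NFE2L1 had ratios below 1. Ngly1, which removes its sugars, had 440 counts in mrWNT2 and 594 in control, a ratio of 0.779 (0.687 to 0.883). Ddi2, which cleaves it, had 1763 counts in mrWNT2 and 2091 in control, a ratio of 0.887 (0.832 to 0.945). Nfe2l2 was at 0.983 (0.923 to 1.05). The ubiquitin gene Ubb was at 0.993 (0.967 to 1.02), and the segregase gene Vcp at 1.02 (0.965 to 1.07). Adrm1 and Sem1 were at 0.980 (0.891 to 1.08) and 1.02 (0.962 to 1.08).

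Other large complexes gave a scale for the shift. The 8 TRiC chaperonin genes, for a ring-shaped protein-folding machine, had a median log2 ratio of 0.23. The interval of all 8 lay above 1 (background 22.5% of protein-coding genes, not matched for level). Cytosolic ribosomal protein genes (80 measured) and mitochondrial ribosomal protein genes (77 measured) had medians of 0.19 and 0.18. The COP9 signalosome, which is related in architecture to the proteasome lid, had a median of 0.05 over 9 genes. Of these 9, Cops4, Cops6 and Gps1 were at least 1.2-fold higher (background 20.4% of protein-coding genes). The proteasome median of 0.10 was above that of COP9 and below those of the other complexes, but by summed counts COP9 (log2 0.16, 0.11 to 0.22) was above the proteasome genes (0.12). The differences between sets were not tested.

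**Figure D4:**
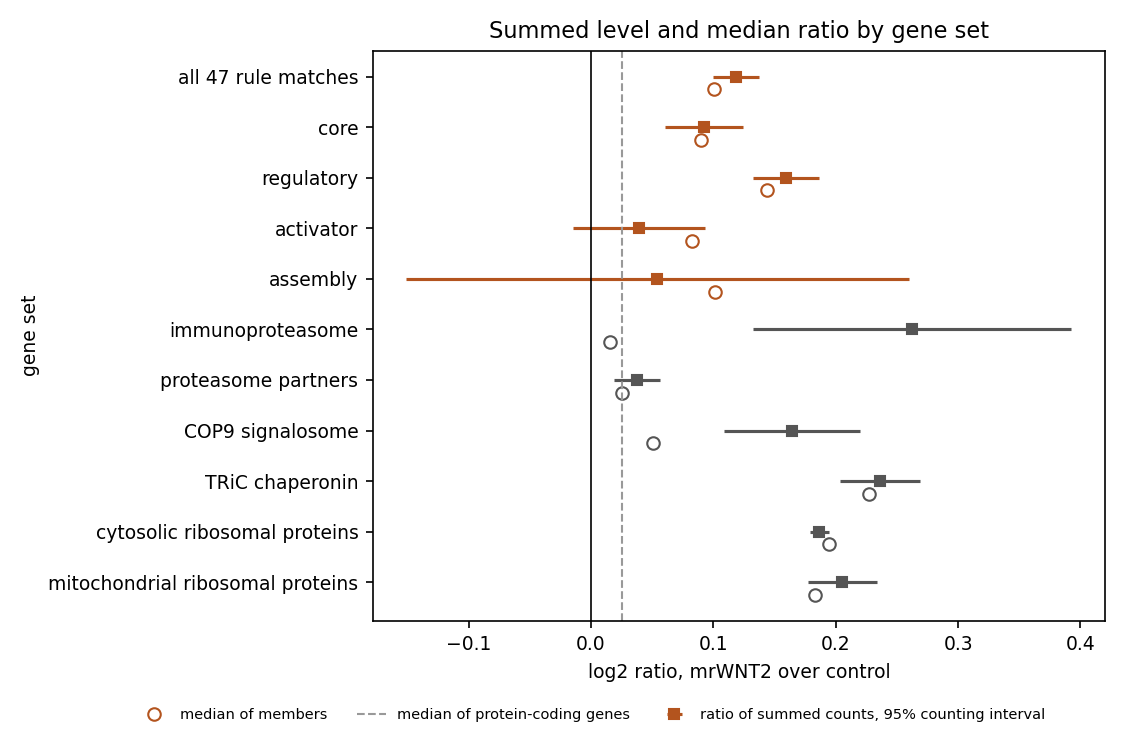
Log2 ratio of mrWNT2 over control by gene set: squares, ratio of summed counts with its 95% binomial interval (counting error only); open circles, median of the measured members; dashed line, median of protein-coding genes (0.03). Proteasome groups are in brown, with the regulatory sum at 0.16 and the core sum at 0.09, and the TRiC chaperonin and ribosomal protein sets in grey lie at 0.19 to 0.24.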

How the data were processed

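RNA-seq of 2 cultures, 1 treated with mrWNT2 and 1 with vehicle, was analysed from the authors' deposited tables of raw counts and of FPKM per gene. The tools listed in the submitters' processing notes, without their roles, are HISAT2 2.0.5, featureCounts 1.5.0-p3, fastp, CASAVA 1.8 and DESeq2 1.20.0, with the GRCm38 build. The strand setting of the counting is not given in the sources. Libraries were prepared from total RNA with the NEBNext Ultra kit, per the labels' protocols.

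Counts were scaled by TMM factors (1.01 for mrWNT2, 0.992 for control) in edgeR 4.0.16 under R 4.3.3. Log2 ratios used no pseudocount, and a count of 0 was read as up to 3 counts. Intervals were computed with scipy 1.17.1, cover counting error only, and may be too narrow because reads carry no molecular identifiers. Nothing says how many animals gave the cells. Genes whose CPM averaged 1 or more over the 2 libraries were kept, and a fold of 1.2 counted. Ratios and intervals were tested on simulated counts with known folds.

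Members and lists were chosen with earlier results of these data known. All members were accounted for; given in full were the 2 highest and 2 lowest measured ratios of each role, the catalytic and activator genes, Psmf1, Psmd4, Psmd11, Psmd14 and members under the minimum. Other members, genes named from the lists, and the promoters shown were chosen after values were seen. Coordinates are those of the deposited table, which for 46 of 47 members equal GENCODE M21 (GRCm38). Promoter sequences are RefSeq's (GRCm38.p6). Principal transcripts are those of GENCODE M21, the longest where several share the best rank. Alternatives were other scalings (median of ratios by DESeq2 1.42.0, raw totals, upper quartile), the deposited FPKM, other minimums, other folds and other member sets.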

Additional observations from a re-analysis of the deposited data

How the results depend on the processing

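No value at or beyond 1.2-fold reversed under any alternative run. Ratios of 5 members near 1 changed sign (Psma2, Psmb3, Psmb4, Psmf1 and Psmg2), as did the activator sum with upper-quartile factors, the assembly sum from FPKM, and the assembly median, at -0.00, with the base chaperones counted as assembly genes. Of the summary values, 42 moved and 91 did not, and the 184 alternative values of single members stayed within their counting intervals. The median log2 ratio of the 45 members (0.10) was 0.067 with median-of-ratios factors, 0.12 with raw totals, 0.049 with upper-quartile factors and 0.067 from FPKM, and their summed ratio (0.12) was 0.085, 0.14, 0.067 and 0.096 in that order. The median over all genes moved with it, so the members' median minus that of protein-coding genes was 0.08 under each. Members at least 1.2-fold higher numbered 3 instead of 5 with median-of-ratios factors, upper-quartile factors or FPKM, and members lower numbered 1 instead of 2 with raw totals, with a minimum of 10 CPM, or without Psme2 and Psme2b, an option chosen after seeing the data. With raw totals 7 were higher. At 1.5-fold, 0 were higher and 0 lower. At 1.1-fold, 15 were higher (background 33.5% of protein-coding genes) and 2 lower (background 26.9%). Members with an interval above 1 (18) numbered 11 with median-of-ratios factors, 20 with raw totals and 10 with upper-quartile factors, and those with an interval below 1 (1) numbered 2, 1 and 2, alternatives chosen after seeing the data.

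With median-of-ratios factors the core median and sum were 0.056 and 0.059, the regulatory median and sum 0.11 and 0.13, and the non-ATPase median and sum 0.12 and 0.13. From FPKM the core, regulatory and non-ATPase medians were 0.056, 0.11 and 0.12. With upper-quartile factors the medians and sums were 0.038 and 0.040 for core, 0.045 and 0.015 for alpha, 0.030 and 0.075 for beta, 0.092 and 0.11 for regulatory, 0.087 and 0.10 for ATPase, and 0.10 and 0.11 for non-ATPase genes. Within the library scalings a change of factor shifts every log2 ratio by the same amount.

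No paired analysis was possible because each group had 1 library and the labels give no replicate numbers, and with 1 library a group none was left out. Depth limits the members with few counts, the lowest being 52 in the control library for Psmg3 and Psmc3ip. Differences between cultures treated alike were not measured, and ratios of this size were not set against them.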
